A study of Mus musculus with 15 samples.

Results

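Ubiquitin-conjugating (E2) enzymes were taken as the protein-coding genes whose symbol begins with Ube2 or is Cdc34, which gave 38 of the 53700 genes counted. A further 6 genes with such a symbol are pseudogenes or an antisense RNA and were left out. One of the 38, Ube2cbp, carries the prefix because its protein binds an E2 and is not itself of the E2 fold.

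E2 enzymes stand in the middle of the ubiquitin cascade. An E1 enzyme activates ubiquitin and hands it to a cysteine of the E2, and an E3 ligase brings the loaded E2 to a substrate, so that the E2 often sets which kind of ubiquitin chain is built. A few E2s carry ubiquitin-like proteins such as NEDD8 or ISG15 instead of ubiquitin. In mouse oocytes the cascade is known for driving the meiotic divisions through the anaphase-promoting complex (APC/C) and for removing stored maternal proteins.

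The samples were mouse GV oocytes (germinal vesicle stage, arrested before the first meiotic division), with polyadenylated RNA of 15 oocytes sequenced in each library. The Padi6 line, of FVB/N strain background, gave 3 heterozygous (het) and 3 knockout (KO) replicates, and the Tle6 line, of C57BL/6J strain background, gave 2 het and 4 KO biological replicates. Both PADI6 and TLE6 are proteins without which an oocyte is known to lack cytoplasmic lattices. No group was wild type. The sources used here do not give how the alleles were made, the age of the animals or how many animals stand behind a replicate. The p-values therefore speak of the variation among these replicates, part of which may be technical.

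The counts in genes ran from 30100177 to 74947533 per library. Padi6 stood at 1595 to 1747 CPM (counts scaled to a library size of 1e+06) in Padi6 het and at 18.8 to 24.8 CPM in Padi6 KO oocytes, and Tle6 at 429.6 to 457 CPM in Tle6 het and at 61.1 to 97.1 CPM in Tle6 KO oocytes. The 13 oocyte markers summed to between 16129 and 20285 CPM in every replicate and none was at 0. Sums were 99.7 to 132 CPM for 15 granulosa and cumulus markers, 2.13 to 6.84 CPM for 9 theca and stroma markers and 0.653 to 2.32 CPM for 8 blood and immune markers, of which 4, 3 and 7 were at 0 in at least 1 replicate. Cyp19a1 and Nr5a2 made up most of the granulosa sum. Of the other granulosa markers, Has2 rose in Padi6 KO, from 3.61, 2.3 and 1.31 to 10.7, 10.8 and 11.4 CPM (edgeR adjusted p = 0.0109), the only one of 11 tested to pass there. Log2 fold changes in Padi6 KO were -2.13 for Fshr, -2.77 for Amhr2, -2.75 for Inha and -1.81 for Cyp11a1 (edgeR adjusted p 0.08 to 0.109), and in Tle6 KO 2.98 for Amhr2 and 1.92 for Inha (0.202 and 0.103). Of 6 theca and stroma markers tested in Tle6 KO, 4 were lower and 2 higher, with log2 fold changes from -3.36 to 1.98. By edgeR, 5 of these 6 had an unadjusted p under 0.05, where 19% of all genes did, and 0 an adjusted p under 0.05. In Padi6 KO it was 3 of 4 unadjusted, where 18.6% of all genes passed, and 0 adjusted. The part of these granulosa and stroma markers in the E2 values was not tested. A CPM is a share of a library, so fewer cells of a kind and less RNA per cell cannot be told apart. The pair of technical libraries (A and B) made for Tle6 het replicate 2 differed from each other, with a correlation of log2 CPM over genes of 0.964 against 0.999 for the other A and B pairs and 0.975 to 0.995 between biological replicates. Where leaving out a library of this pair ended a call or moved a named change by over 1.5 times, the value without it, or the value in each library, stands beside the result.

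The stretch of the coding sequence that makes the active site is shown for 8 members whose levels the results below turn on. Each line holds 33 bases, 5′ to 3′ on the coding strand, from the transcripts of GENCODE M21 on GRCm38. Capitals mark the codons of the histidine-proline-asparagine (HPN) motif of E2 enzymes and the codon of the catalytic cysteine, to which ubiquitin is bound, with 7 codons between them.
Cdc34: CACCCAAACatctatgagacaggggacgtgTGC
Ube2r2: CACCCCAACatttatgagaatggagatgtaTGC
Ube2g1: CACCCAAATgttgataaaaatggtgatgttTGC
Ube2g2: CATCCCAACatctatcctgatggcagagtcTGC
Ube2d1: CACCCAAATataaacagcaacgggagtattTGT
Ube2d3: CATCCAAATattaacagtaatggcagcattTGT
Ube2e2: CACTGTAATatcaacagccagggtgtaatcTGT
Ube2t: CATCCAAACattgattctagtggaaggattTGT
The middle codon of the motif in Ube2e2 encodes cysteine, where the other 7 lines encode proline. Cdc34 and Ube2r2 hold this stretch at codons 83 to 93, Ube2d1 and Ube2d3 at codons 75 to 85, Ube2g1 at 80 to 90, Ube2g2 at 79 to 89, Ube2e2 at 129 to 139 and Ube2t at 76 to 86. The genes lie on chromosome 10 (Cdc34, Ube2d1 and Ube2g2), 4 (Ube2r2), 11 (Ube2g1), 3 (Ube2d3), 14 (Ube2e2) and 1 (Ube2t). Of the 38 members, 24 had histidine, proline and asparagine codons in a row, and 21 had them with a cysteine codon at this spacing. The same spaced pattern was found in 70 of 21457 genes with a complete coding sequence (0.326%). With any middle codon, 24 members and 361 genes in all (1.68%) matched. Ube2v1 and Ube2v2, the E2 variants known to lack the catalytic cysteine, were among the 17 members without the HPN pattern. So were Ube2e1, Ube2e2 and Ube2e3, which matched with another middle codon. Ube2h and Ube2k, with the HPN codons but no cysteine codon at this spacing, were there too. Absence of the pattern therefore does not show that a catalytic cysteine is lacking.

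GV oocytes held transcripts of nearly the whole family, over a wide range of levels. Per kilobase of merged exons and averaged over the 4 groups, the 6 highest were Ube2g1 at 132, Ube2c at 122, Ube2h at 118, Ube2t at 95.2, Ube2b at 66.0 and Ube2a at 59.4 CPM per kilobase. The length used decides part of this order. With the length of 1 coding transcript per gene, an alternative added after seeing the data, 3 of these 6 (Ube2t, Ube2c and Ube2g1) stayed among the top 6, joined by Ube2w, Ube2d3 and Ube2d2a. Ube2d3 has 24.499 kb of merged exons and a transcript of 3.833 kb, and the transcript used for Ube2w, of 0.543 kb, holds only its coding bases. At the low end, Ube2l6, Ube2d2b and Ube2dnl2 had 16, 8 and 3 counts over all libraries, Ube2v1 had 114, Ube2dnl1 334, Ube2ql1 351 and Ube2v2 692. The groups differed in total as well: the 38 members summed to 4509, 4587 and 4617 CPM in Padi6 het, 4426, 4597 and 4736 in Padi6 KO, 6059 and 6456 in Tle6 het, and 5516, 5275, 5475 and 5217 CPM in Tle6 KO oocytes. Both Tle6 groups lay above both Padi6 groups, and Tle6 het lay above Tle6 KO, although library A of Tle6 het replicate 2 alone, at 5437 CPM, lay within the Tle6 KO range (library B 7157 CPM). Abundant members weigh most in these sums. Ube2d3 averaged 874 CPM in Padi6 het and 1621 in Tle6 het, Ube2g1 491 and 861, and Ube2t 326 and 592. Of 35 members tested between the het groups, 24 had a positive and 11 a negative log2 fold change. Over all 21392 genes tested, 10417 were positive and 10968 negative.

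**Figure D1:**
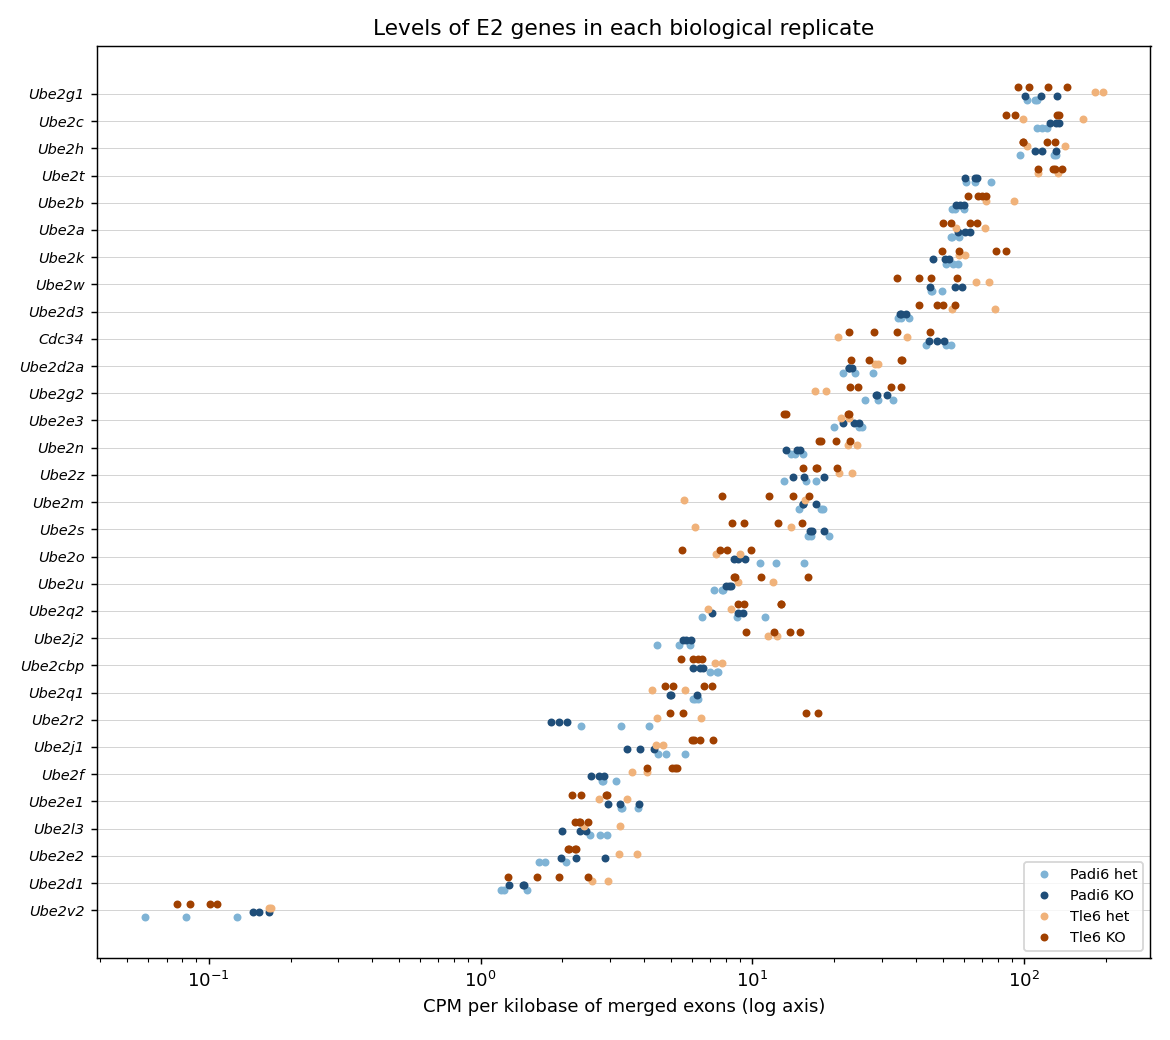
CPM per kilobase of merged exons on a log axis for members tested in both lines, 1 point per biological replicate and 1 color per group, ordered by the mean of the 4 groups. Most rows span less than the distance between the highest and the lowest genes, from Ube2g1 at 132 to Ube2v2 at 0.126 CPM per kilobase.

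UBE2C and UBE2S work with the APC/C, UBE2C starting chains and UBE2S extending them. Ube2c stood at 289.9, 301 and 314 CPM in Padi6 het, 322, 339 and 348 in Padi6 KO, 427 and 258 in Tle6 het, and 342, 223, 241 and 349 CPM in Tle6 KO oocytes (replicates in order of their number, here and throughout). Ube2s stood at 82.3, 84.7 and 98.0 CPM in Padi6 het, 94.1, 83.7 and 85.4 in Padi6 KO, 71.3 and 31.6 in Tle6 het, and 64.0, 47.8, 43.2 and 78.1 CPM in Tle6 KO. Both genes varied more between replicates of the Tle6 line than of the Padi6 line, and for neither did the ranges of Tle6 het and KO separate. In the Padi6 line the KO values of Ube2c all lay above the het values, by a small margin. A short stretch of Ube2s exons, 3.6%, overlaps Rpl28 on the opposite strand, and 22.8% of Ube2c exons overlap Tnnc2, which was at 0 CPM in all groups.

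The UBE2D enzymes serve a broad range of E3 ligases and often attach the first ubiquitin. Ube2d3 was at 922, 843 and 858 CPM in Padi6 het, 857, 865 and 898 in Padi6 KO, 1329 and 1914 in Tle6 het, and 1229, 1167, 1357 and 1002 CPM in Tle6 KO. Ube2d2a was at 321, 248 and 276 CPM, then 269.7, 261 and 261, then 326 and 334, then 266, 405, 409 and 311 CPM in the same 4 groups. Ube2d1 was at 5.2, 6.47 and 5.34 CPM in Padi6 het, 5.57, 6.31 and 6.24 in Padi6 KO, 11.2 and 12.9 in Tle6 het, and 10.9, 5.52, 7.02 and 8.46 CPM in Tle6 KO. Ube2d3 and Ube2d1 were higher in both Tle6 het replicates than in any Padi6 replicate, while for Ube2d2a Tle6 het exceeded the Padi6 groups by little and Tle6 KO spanned a wide range. The coding sequences of Ube2d2a and Ube2d2b were identical at 92.6% of bases, those of Ube2d2a and Ube2d3 at 86.3% and those of Ube2d1 and Ube2d3 at 77.3%. The near-identical Ube2d2a and Ube2d2b pair, and Ube2dnl1 and Ube2dnl2 at 94.7%, are uncertain, since reads with several alignments were set apart in the deposited counts.

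The UBE2E enzymes are relatives of UBE2D with an extended N-terminus. Ube2e2 was at 7.99, 7.57 and 9.51 CPM in Padi6 het, 10.4, 9.18 and 13.3 in Padi6 KO, 15.0 and 17.4 in Tle6 het, and 9.68, 9.79, 10.4 and 10.3 CPM in Tle6 KO. The Tle6 het replicates were thus the highest of all, and the 4 Tle6 KO replicates lay within the range of Padi6 KO. Ube2e3 averaged between 78.5 and 103 CPM and Ube2e1 between 11.5 and 15.4 CPM over the groups, and 16.1% of Ube2e1 exons overlap Nkiras1 on the opposite strand, which stood at 112 to 206 CPM.

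UBE2N builds chains linked through lysine 63 of ubiquitin, together with the catalytically inactive partner UBE2V1 or UBE2V2. Ube2n was at 60.5, 58.5 and 64.7 CPM in Padi6 het, 56.0, 61.3 and 63 in Padi6 KO, 94.7 and 102 in Tle6 het, and 96.2, 73.9, 75.6 and 85.6 CPM in Tle6 KO. Ube2v2 was at 0.416, 0.906 and 0.590 CPM in Padi6 het, 1.04, 1.09 and 1.19 in Padi6 KO, 1.19 and 1.21 in Tle6 het, and 0.608, 0.766, 0.724 and 0.546 CPM in Tle6 KO. Ube2v2 was therefore higher in KO than in het in the Padi6 line and lower in KO than in het in the Tle6 line, without overlap in either, at levels near 1 CPM. Ube2v1 averaged 0.0802 to 0.226 CPM, and 61.5% of its exon bases are shared with the overlapping gene Gm20431 on the same strand, so its level is uncertain.

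UBE2A and UBE2B are the mouse counterparts of yeast Rad6, which acts in DNA damage tolerance and on histone H2B, and in mice loss of Ube2a is known to make females infertile. Ube2a was at 131, 122 and 123 CPM in Padi6 het, 129, 143 and 137 in Padi6 KO, 127 and 163 in Tle6 het, and 122, 152, 143 and 114 CPM in Tle6 KO. Ube2b was at 118, 128 and 115 CPM, then 123, 127 and 119, then 154 and 194, then 143, 148, 154 and 132 CPM in the same groups. Ube2a overlapped between all groups, whereas Ube2b was lower in every Padi6 replicate than in any Tle6 replicate.

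CDC34 and UBE2R2 extend chains with the SCF and other cullin ligases, UBE2G1 does so with the CRL4 cullin ligases, and UBE2G2 acts in the breakdown of misfolded proteins of the endoplasmic reticulum (ER). Cdc34 was at 80.6, 68.2 and 84.5 CPM in Padi6 het, 74.9, 79.4 and 69.8 in Padi6 KO, 58.2 and 32.3 in Tle6 het, and 53.3, 44.0, 35.7 and 70.4 CPM in Tle6 KO. Ube2r2 was at 9.80, 17.4 and 13.8 CPM in Padi6 het, 8.72, 8.13 and 7.6 in Padi6 KO, 18.6 and 27 in Tle6 het, and 23.2, 66.1, 73.2 and 20.9 CPM in Tle6 KO. Ube2r2 was thus lowest in Padi6 KO, and within Tle6 KO replicates 2 and 3 were at about 3 times the level of replicates 1 and 4. Ube2g1 was at 467, 499 and 508 CPM in Padi6 het, 462, 528 and 602 in Padi6 KO, 834 and 888 in Tle6 het, and 654, 432, 476 and 557 CPM in Tle6 KO. Ube2g2 was at 62.8, 79.8 and 70.4 CPM, then 69.4, 69.8 and 75.7, then 45.4 and 41.2, then 55.6, 78.8, 85.5 and 59.2 CPM in the same groups. Tle6 het stood apart for both UBE2G genes, with the highest Ube2g1 and the lowest Ube2g2 values of the 4 groups.

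UBE2J1 and UBE2J2 sit in the ER membrane and serve the same breakdown pathway. Ube2j1 was at 19.9, 15.8 and 16.9 CPM in Padi6 het, 15.3, 13.6 and 12.2 in Padi6 KO, 15.6 and 16.5 in Tle6 het, and 25.3, 22.6, 21.2 and 21.5 CPM in Tle6 KO. Ube2j2 was at 19.7, 25.9 and 23.7 CPM, then 25.2, 24.5 and 26.3, then 54.4 and 50.4, then 65.8, 41.8, 53.1 and 60.8 CPM. Ube2j1 was lowest in Padi6 KO and highest in Tle6 KO, and Ube2j2 was higher in every Tle6 replicate than in any Padi6 replicate.

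Among the E2s of ubiquitin-like proteins, UBE2M and UBE2F carry NEDD8, UBE2L6 carries ISG15, and UBE2Z is loaded by the E1 enzyme UBA6. Ube2m was at 34.8, 43.0 and 42.1 CPM in Padi6 het, 36.3, 36.1 and 40.3 in Padi6 KO, 36.7 and 13.2 in Tle6 het, and 33.1, 27, 18.2 and 37.9 CPM in Tle6 KO. Ube2z was at 52.3, 68.7 and 63 CPM in the first of these groups, then 61.6, 56.3 and 73.3, then 93.0 and 83.4, then 81.7, 61.2, 69.2 and 68.6 CPM. The 2 Tle6 het values of Ube2m lay far apart, and Ube2z was highest in Tle6 het. Ube2f averaged 24.0 to 43.4 CPM over the groups.

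Of the other ubiquitin E2s, UBE2H works with the CTLH ligase, UBE2T with the Fanconi anaemia ligase FANCL, UBE2W marks protein N-termini, and UBE2O joins E2 and E3 activity in 1 protein. Ube2h was at 461, 613 and 623 CPM in Padi6 het, 523, 557 and 627 in Padi6 KO, 676 and 487 in Tle6 het, and 579, 472, 472 and 619.5 CPM in Tle6 KO. Ube2t was at 365, 295 and 318 CPM, then 323, 318 and 293, then 543 and 640.5, then 663, 615, 542 and 629 CPM. Ube2t was higher in every Tle6 replicate than in any Padi6 replicate, and Ube2h overlapped between all groups. Ube2w was at 226, 223 and 246 CPM, then 222, 273 and 291, then 328 and 366, then 279, 168, 202 and 223 CPM. Ube2o was at 56.5, 82.0 and 64.4 CPM in Padi6 het, 49.5, 45.3 and 46.9 in Padi6 KO, 47.7 and 38.9 in Tle6 het, and 52.1, 29.0, 42.7 and 40.3 CPM in Tle6 KO. Ube2w was highest in Tle6 het, and Ube2o was highest in Padi6 het. Group means of the remaining members were 395 to 537 CPM for Ube2k, 30.8 to 38.2 for Ube2q1, 32.8 to 46.9 for Ube2q2, 13.1 to 16.5 for Ube2l3, 11.7 to 16.8 for Ube2u, 10.9 to 13.4 for Ube2cbp, 0.0756 to 0.951 for Ube2ql1 and 0.131 to 0.905 CPM for Ube2dnl1. Of the Ube2l3 exons, 28.6% overlap Ydjc on the opposite strand, at 0.465 to 1.52 CPM.

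Whether E2 transcripts differ in oocytes without PADI6 was asked by testing all genes with enough counts and reading off the members. No E2 gene passed the threshold, an adjusted p under 0.05 over all genes tested. The count was 0 of 32 members tested with edgeR's quasi-likelihood test, against 2.41% of the 18228 genes tested, and 6 members had too few counts to enter. At an unadjusted p under 0.05 there were 4 members, where 18.6% of all genes passed. DESeq2 called 2 (7.25% of all genes), Ube2o and Ube2r2, both lower in KO, and limma-voom called 0 (1.97% of all genes). The median log2 fold change was -0.01 over the 32 members and -0.01 over all genes, and the median size of the change was 0.11 against 0.22.

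The smallest p-values in the Padi6 line belonged to Ube2o, Ube2r2, Ube2j1, Ube2v2 and Ube2e2. Ube2o had a log2 fold change of -0.52 ± 0.14 (SE, 3 KO and 3 het replicates, edgeR adjusted p = 0.0909), with all KO values below all het values. Ube2r2 had -0.75 ± 0.21 (adjusted p = 0.0927), also with no overlap. Without Padi6 het replicate 1 the edgeR adjusted p of Ube2r2 was 0.04, and without Padi6 het replicate 2 its log2 fold change was -0.52 and that of Ube2o -0.34. The log2 fold changes were -0.36 ± 0.14 for Ube2j1, 0.79 ± 0.35 for Ube2v2 and 0.39 ± 0.18 for Ube2e2, with edgeR adjusted p from 0.211 to 0.283. Het and KO ranges did not overlap for 9 of the 32 members, 4 higher and 5 lower, a share close to the 23.2% of all genes. For 30 of the 32 members the 95% interval of the fold change lay within 2-fold in either direction, Ube2r2 and Ube2v2 being the exceptions. The intervals of the abundant members were narrow, from -0.20 to 0.19 on the log2 scale for Ube2d3 and from -0.15 to 0.36 for Ube2g1.

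The same question in the Tle6 line gave the same count. No E2 gene passed the threshold among 35 tested with edgeR, against 1.62% of 20276 genes, and 3 members had too few counts. At an unadjusted p under 0.05 there were 6, where 19% of all genes passed, DESeq2 called 1 (Ube2e2, lower, where 8.54% of all genes passed) and limma-voom called 0 (1.79%). With the spread estimated over both lines together, where 9.63% of all genes passed, 4 members did, Ube2e2, Ube2g1 and Ube2w lower and Ube2g2 higher. The median log2 fold change was 0.09 against 0.06 for all genes, and the median size 0.26 against 0.42.

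Ube2g1, Ube2e2, Ube2g2, Ube2w and Ube2j1 had the smallest p-values in this line. Ube2g1 had a log2 fold change of -0.66 ± 0.20 (SE, 4 KO and 2 het replicates, edgeR adjusted p = 0.137). Ube2e2 had -0.65 ± 0.21, Ube2w -0.63 ± 0.22, Ube2g2 0.73 ± 0.23 and Ube2j1 0.54 ± 0.20, with edgeR adjusted p from 0.144 to 0.195. Summed over libraries, all 5 had ranges that did not overlap between het and KO. On the scale of single libraries, library A of Tle6 het replicate 2 held 24.1 CPM of Ube2j1 (library B 10.9). This lay inside the range of the Tle6 KO libraries, 20.9 to 24.7 CPM. For Ube2g1 library A held 646 CPM (library B 1058), just above the highest Tle6 KO library at 638 CPM. Without library B the log2 fold change was 0.20 for Ube2j1, -0.48 for Ube2g1, 0.56 for Ube2g2, -0.50 for Ube2w and -0.64 for Ube2e2. Without library A it was 0.79, -0.82, 0.83, -0.76 and -0.71 in the same order, and none passed the threshold either way (edgeR adjusted p 0.102 to 0.794). The ranges were apart for 11 of the 35 members, 3 higher and 8 lower, beside 29.2% of all genes. Ube2r2 had the wide replicate values given above and a log2 fold change of 1.05 ± 0.54. The 2 het replicates and a larger spread (biological coefficient of variation 0.361, against 0.203 in the Padi6 line) left the intervals wider here, and 22 of 35 lay within 2-fold in either direction. The intervals of the other 13 reached past 2-fold, among them those of the UBE2G genes, Ube2e2, Ube2w, Ube2r2, Ube2m and Ube2s.

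**Figure D2:**
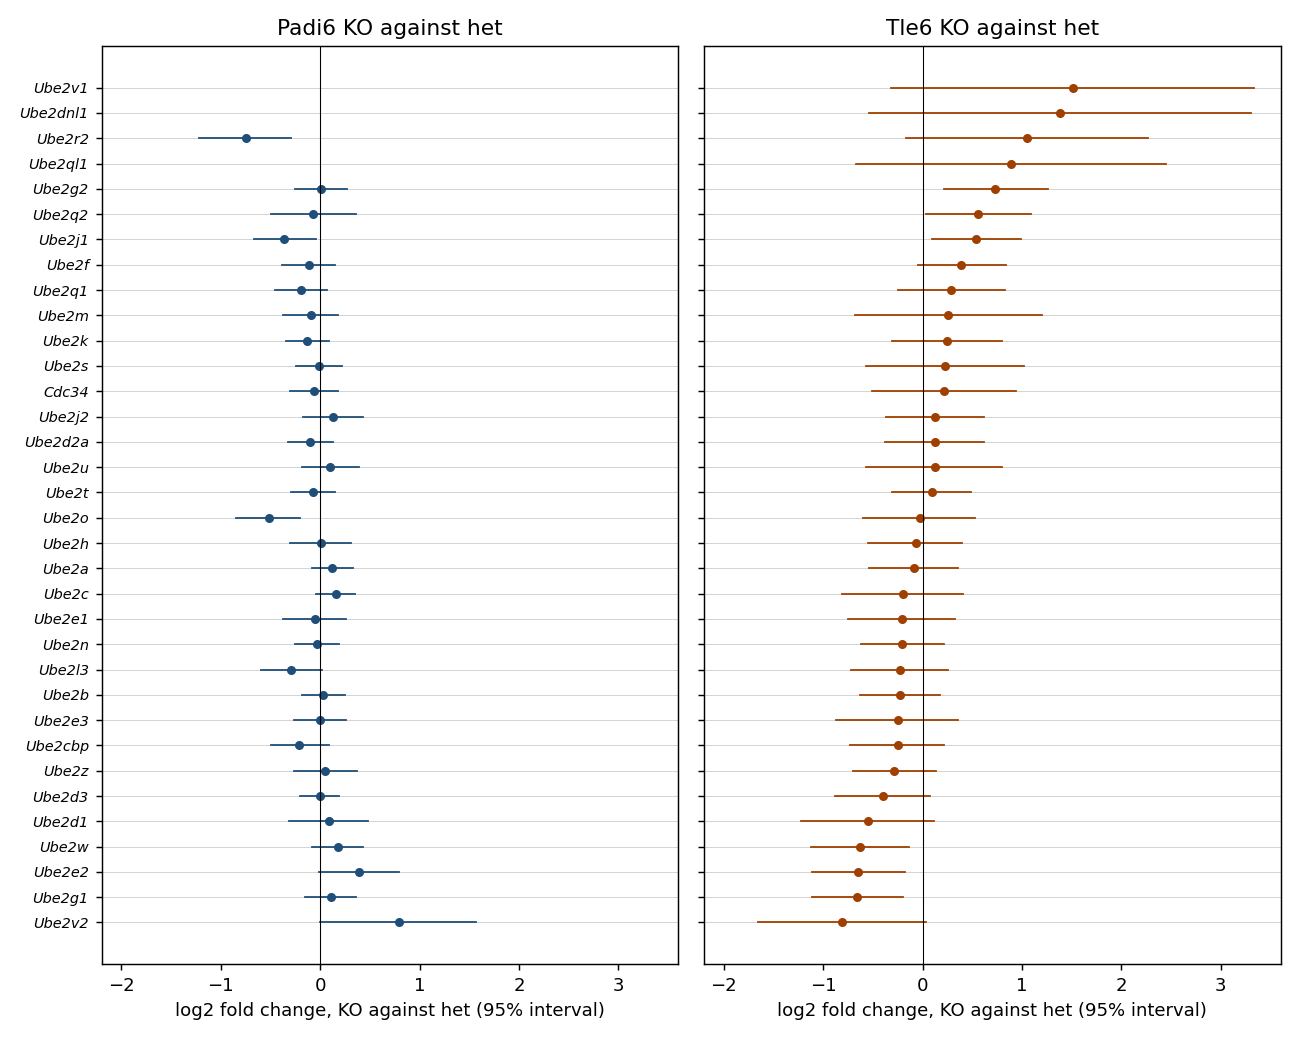
Log2 fold change of KO against het with its 95% interval for members tested, Padi6 line on the left and Tle6 line on the right, in the order of the Tle6 values. The Padi6 points lie between -0.75 and 0.79 and the Tle6 points between -0.81 and 1.51, and intervals are wider in the Tle6 line.

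Whether the KO effect differed between the Tle6 line and the Padi6 line was tested directly as an interaction over all 12 biological replicates. The gene lost, strain background, line and sequencing libraries cannot be told apart in this difference. Ube2e2 was the only 1 of 35 members past the threshold, where 4.32% of 21392 genes passed and 3.01% were lower. Its KO effect was lower in the Tle6 line than in the Padi6 line by a log2 difference of -1.08 ± 0.26 (edgeR adjusted p = 0.0348), from the values given above, where KO lay below het in all 4 Tle6 replicates and KO and het overlapped in the Padi6 line. The call rested on many single replicates. The adjusted p was 0.0754, 0.0884 and 0.0566 without Padi6 het replicate 1, 2 or 3, and 0.0565 and 0.1 without Padi6 KO replicate 1 or 3. It was 0.109 without Tle6 het replicate 2, 0.0706 without library B of that replicate, and 0.0654, 0.0512 and 0.0509 without Tle6 KO replicate 2, 3 or 4, while the difference itself stayed between -0.92 and -1.18 in all of these fits. The members with the next smallest p-values had differences of 0.85 ± 0.23 (Ube2j1), -0.81 ± 0.23 (Ube2g1), -1.65 ± 0.48 (Ube2v2) and -0.85 ± 0.25 (Ube2w), with edgeR adjusted p from 0.0558 to 0.0734. Without library A of Tle6 het replicate 2, Ube2j1, Ube2g1 and Ube2w passed the threshold (edgeR adjusted p 0.0318, 0.0397 and 0.0498), while without library B the difference of Ube2j1 was 0.55 (0.386). Ube2r2, lower in Padi6 KO and higher on average in Tle6 KO, had a difference of 1.75 ± 0.62 (adjusted p = 0.125). Unadjusted, 9 members passed, where 20.7% of all genes did.

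**Figure D3:**
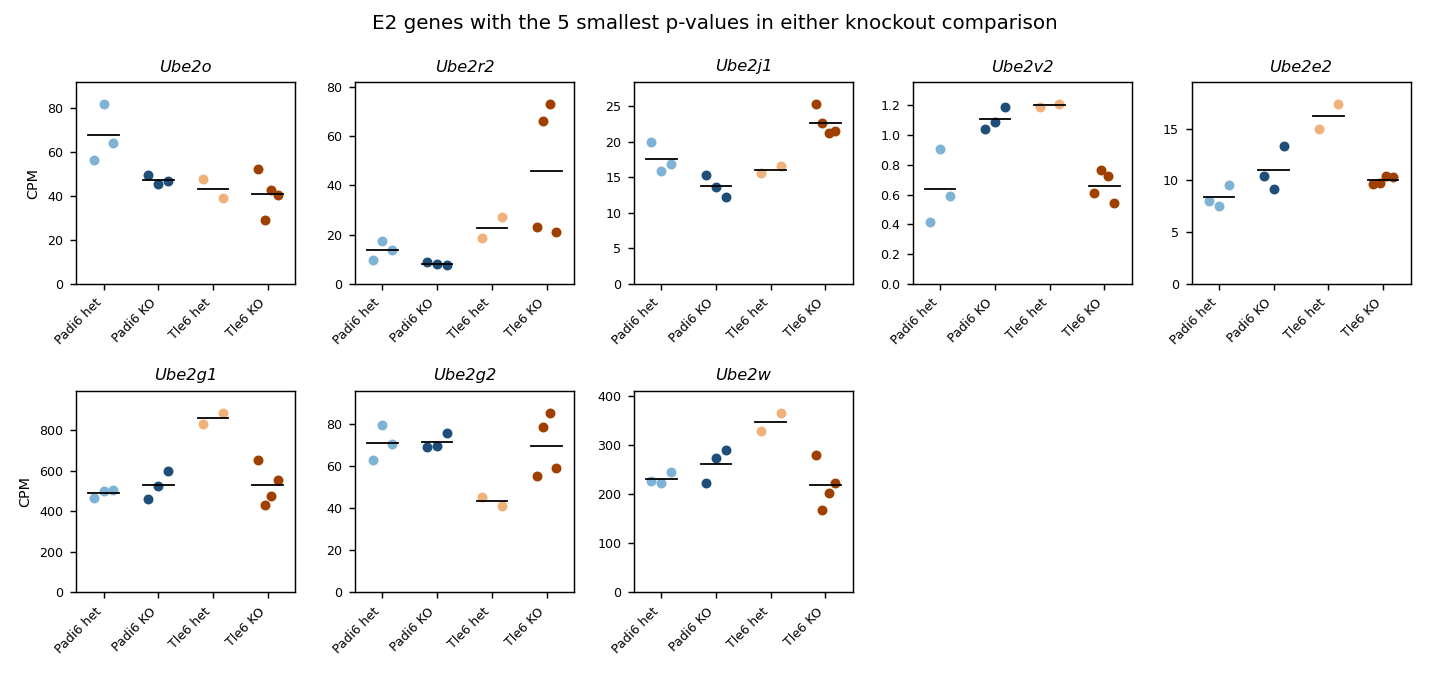
CPM in each biological replicate (points) and the group mean (line) for the 8 members with the 5 smallest p-values in either KO comparison, each on a linear axis from 0. Ube2e2, Ube2g1 and Ube2w are highest in the 2 Tle6 het replicates, and Ube2r2 splits within Tle6 KO into values near 20.9 and 23.2 and values near 66.1 and 73.2.

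The last comparison set the het oocytes of the lines against each other. Of 35 members, 14 passed the threshold, 11 higher and 3 lower in Tle6 het than in Padi6 het, where 28.5% of 21392 genes passed, 15.9% higher and 12.7% lower. Unadjusted, 17 members and 40% of all genes had a p under 0.05. Strain background, line and sequencing libraries cannot be told apart here, and the comparison shares its het samples with both KO comparisons. Ube2j2 was higher by a log2 fold change of 1.18 ± 0.19 (SE, 2 and 3 replicates, edgeR adjusted p = 0.000540), Ube2t by 0.86 ± 0.15, Ube2d3 by 0.89 ± 0.17, Ube2e2 by 0.96 ± 0.20, Ube2n by 0.69 ± 0.15 and Ube2d1 by 1.09 ± 0.26. These 6 passed the threshold under all 21 alternative settings run. The others that were higher were Ube2g1 at 0.81 ± 0.17, Ube2b at 0.53 ± 0.14, Ube2w at 0.58 ± 0.19, Ube2z at 0.52 ± 0.17 and Ube2ql1 at 2.8 ± 0.87, the last from 12 counts in Padi6 het and 97 in Tle6 het. Ube2ql1 stood at 0.114, 0.113 and 0 CPM in Padi6 het, 0.147, 0.0779 and 0.149 in Padi6 KO, 0.253 and 0.788 in Tle6 het, and 1.52, 1.32, 0.56 and 0.407 CPM in Tle6 KO, higher in every Tle6 replicate than in any Padi6 replicate. The lower ones were Ube2g2 at -0.71 ± 0.20, Ube2o at -0.64 ± 0.23 and Cdc34 at -0.78 ± 0.28.

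Part of these 14 calls depended on single replicates or libraries. In 14 fits that left out 1 replicate or 1 library, Ube2o kept its call in 3, Cdc34 in 4, Ube2w in 7 and Ube2z in 8, and the adjusted p over all replicates was 0.0485 for Ube2o, 0.0488 for Cdc34, 0.0356 for Ube2w and 0.0371 for Ube2z. Ube2g2 and Ube2ql1 kept theirs in 11, Ube2b and Ube2g1 in 13, and Cdc34 and Ube2o also lost theirs with RLE scaling (0.0537 and 0.0528). Without library B of Tle6 het replicate 2, 8 members passed, all higher, where 17.5% of all genes passed. Without Padi6 het replicate 3 there were 9, and the share of all genes in that fit is not given. The 2 libraries of Tle6 het replicate 2 gave 27.2 and 67 CPM for Ube2j2, 1253 and 2383 CPM for Ube2d3, 646 and 1058 for Ube2g1, 45.8 and 110.2 for Ube2z, and 52.3 and 17.5 CPM for Cdc34, library A first. The 13 oocyte markers summed to 20374 CPM in the first of these libraries and 15239 CPM in the other, and the part of this gap in the E2 values was not tested. Without library B the log2 fold change of Ube2z was 0.18 and that of Cdc34 -0.50 (edgeR adjusted p 0.679 and 0.17), and those of Ube2j2 and Ube2d3 were 0.82 and 0.56 (edgeR adjusted p 0.0464 and 0.021). The calls of Ube2g1, Ube2g2, Ube2w and Ube2o were also lost without library B (edgeR adjusted p 0.0529, 0.0642, 0.173 and 0.0521), and those of Cdc34, Ube2o and Ube2ql1 without library A (0.0549, 0.0859 and 0.0582). Ranges were apart for 22 of 35 members beside 53.9% of all genes, and the median log2 fold change was 0.21 beside -0.03. By role, those past the threshold were 3 of 7 UBE2D and UBE2E genes tested (all higher), 3 of the 4 CDC34 and UBE2G genes (1 higher, 2 lower), 1 of 2 RAD6 genes, 1 of 3 genes for lysine 63 chains, 1 of 2 ER membrane E2s, 1 of 4 E2s of ubiquitin-like proteins, 4 of 10 other ubiquitin E2s and 0 of 2 APC/C E2s (edgeR, with Ube2s at an unadjusted p under 0.05; limma-voom called Ube2s, lower, and DESeq2 called 0).

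**Figure D4:**
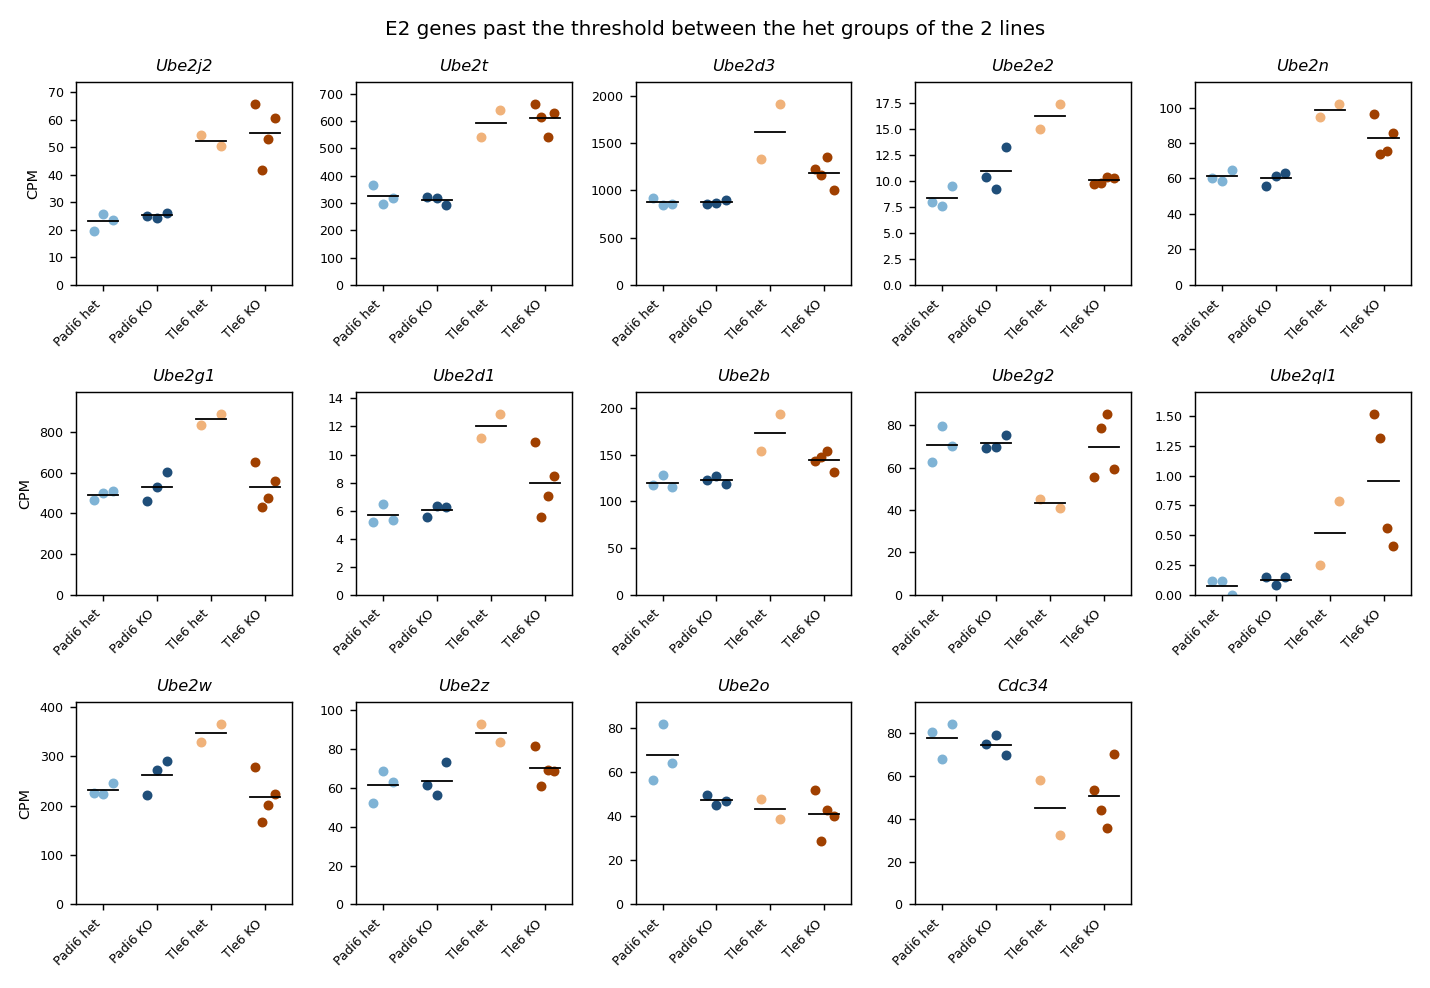
CPM in each biological replicate (points) and the group mean (line) for the 14 members past the threshold between Tle6 het and Padi6 het, on linear axes from 0. Ube2j2, Ube2t and Ube2n are high in both Tle6 groups, while Ube2g1, Ube2e2 and Ube2w are high in Tle6 het alone among the group means.

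The steps before and after the E2 were read from lists of E1 enzymes, other E2-fold proteins and E3 partners. In Padi6 KO none passed the threshold with edgeR, 0 of 8 E1 enzymes, 0 of 9 other E2-fold proteins and cofactors and 0 of 41 E3 partners, with 1, 1 and 9 at an unadjusted p under 0.05, where 2.41% of all genes passed adjusted and 18.6% unadjusted. In Tle6 KO, 1 of 8 E1 enzymes, 1 of 9 other E2-fold proteins and 0 of 41 E3 partners passed with edgeR, where 1.62% of all genes did. At an unadjusted p under 0.05 there were 3, 4 and 9, where 19% of all genes passed. The E1 past the threshold was Uba6, which loads UBE2Z. Uba6 stood at 21 and 25.4 CPM in Tle6 het and at 142, 95.8, 115 and 111 CPM in Tle6 KO, a log2 fold change of 2.36 ± 0.23 (edgeR adjusted p = 0.00224). In the Padi6 line it stood at 70.2, 106 and 89.2 CPM in het and 86.4, 102 and 114 CPM in KO. The Tle6 het group was thus the one with low Uba6, and the call held in every alternative run. Its partner Ube2z had a log2 fold change of -0.29 ± 0.18 in the same comparison (edgeR adjusted p = 0.432). Ube2z stood at 110.2 CPM in library B of Tle6 het replicate 2 and at 45.8 CPM in library A. The library A value lay below all Tle6 KO libraries on the same scale, 60.2 to 79.8 CPM, and the change without either library is not given.

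Atg10, which acts as the E2 for ATG12 in autophagy, fell in Tle6 KO from 28.7 and 35.8 CPM to 15.1, 12.6, 11.4 and 13.8 CPM (-1.25 ± 0.21, edgeR adjusted p = 0.0284). In Tle6 het replicate 2, library A held 18 and library B 48.5 CPM of Atg10. Without library B its log2 fold change was -0.82 (adjusted p = 0.216), and its adjusted p was 0.0584 with het replicate 1 left out and 0.123 with het replicate 2 left out. Leaving out KO replicate 2, 3 or 4 gave 0.0886, 0.0752 and 0.0675.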

How the data were processed

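Polyadenylated RNA of 15 GV oocytes per library went into QIAseq FX Single Cell libraries, per the labels' protocols. Groups follow the titles and genotype labels, since the bracketed library names say WT for heterozygotes. The authors deposited raw read counts per gene for 15 libraries. The submitters' processing notes name bcl2fastq 2.20.0.422, cutadapt 2.8, STAR 2.7.8a, HTSeq 2.0.2 and mm39. The sources used here do not give the annotation release or the strand setting, so overlapping genes are uncertain. Lines for reads in no gene (5.39 to 7.29% of a library's table), in overlapping genes (3.85 to 4.2%) and with several alignments (12.09 to 14.51%) and spike-ins stayed out of library sizes.

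Symbols came from GENCODE M21 on GRCm38 (52147 of 53700 identifiers matched), which served for names, chromosome, exon length and coding sequence, with no coordinates. Counts of the A and B libraries were summed, giving 12 biological replicates. Genes passing filterByExpr were tested two-sided with edgeR 4.0.16 (R 4.3.3, TMM, robust glmQLFit and glmQLFTest) within each line. The interaction and the het comparison came from a fit of all replicates. P-values were adjusted by Benjamini-Hochberg over all genes tested, with a threshold of 0.05. CPM use TMM-scaled library sizes, and those of single A and B libraries their own. Intervals are 95% intervals from the fit. At these depths the spread between replicates, not counting, limits members above a few CPM. The test was tried on simulated data first.

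Alternatives were RLE or upper quartile scaling, no filter or a mean of 5 CPM, DESeq2 1.42.0, limma-voom (limma 3.58.1), a spread shared by the lines, a replicate block, other uses of the technical libraries and leaving out each replicate. Named with values in every replicate are members past the threshold in any comparison, the 5 with the smallest p in each KO comparison, the 6 highest per kilobase and 12 chosen by role, 24 in all, and E1 enzymes, other E2-fold proteins and E3 partners past the threshold in a KO comparison. The values of 1 member and of 1 further list are not reported here. The members and lists were chosen with earlier results of these data known.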

Additional observations from a re-analysis of the deposited data

Results flagged for a closer look

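By a test of the difference itself, the knockout effect on Ube2e2 passed the threshold for a difference between the lines. It was 1 of 35 members tested, where 4.32% of all genes passed and 3.01% were lower. The KO effect passed in neither line alone (edgeR adjusted p 0.283 for Padi6 and 0.144 for Tle6). The interaction call was kept in 9 of 22 alternative settings. The gene lost, strain background, line and sequencing libraries cannot be told apart in this difference. The log2 fold change of KO against het was 0.39 without PADI6 and -0.65 without TLE6, and the interaction was -1.08 ± 0.26 (edgeR adjusted p = 0.0348). The Tle6 het replicates, at 15.0 and 17.4 CPM, were the highest of the 4 groups. Technical library and sample dependence of the call are given in the report, and their part in the difference was not tested.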

How the results depend on the processing

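In the Padi6 line, 0 members were called in the report and 2 with no filter or with DESeq2, and leaving out a replicate gave 0 to 1. DESeq2 called 7.25% of all genes there, against 2.41% in the report. In the Tle6 line 0 were called, 1 with DESeq2 and 4 when the lines shared their spread. Of all genes, 8.54% passed with DESeq2 and 9.63% with the shared spread, against 1.62% in the report. For the difference of the KO effects, 1 was called in the report, 2 with RLE scaling, with upper quartile scaling or with a mean of 5 CPM, 3 with no filter and 6 with DESeq2. The 3 with no filter did not include Ube2e2 (adjusted p = 0.0628), which kept its call in 9 of 22 settings. That count was 4 without library A of Tle6 het replicate 2, 0 without its library B and 0 with library A only, and leaving out a replicate gave 0 to 3. Between the het groups 14 were called, 8 without library B and 8 with library A only, and leaving out a replicate gave 7 to 14. Without library B, 17.5% of all genes passed between the het groups, against 28.5% in the report. For the other alternatives counted here, among them all those of the difference, the share of all genes is not given. Their member counts therefore cannot be set against all genes. Of the 6 highest members per kilobase, 3 stayed with the transcript length. The cause of these shifts was not tested, except that leaving out a replicate leaves fewer samples. No member changed sign past the threshold in any alternative.

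Same-numbered het and KO replicates deviated together only weakly, with correlations of 0.11, 0.06 and 0.07 in the Padi6 line and 0.05 and 0.10 in the Tle6 line, so the numbers were not taken as pairs. Each Padi6 het replicate correlated best with its own number, and Tle6 het replicate 1 did so with KO replicate 4 (0.14). With the replicate block, 0 members were called in the difference, where Ube2e2 had -1.11 (adjusted p = 0.0684), and 0 in each line. Within a line, the block kept only replicate numbers found in both groups, so Tle6 KO replicates 3 and 4 were left out of it. In that fit the Tle6 KO call of Atg10 was lost (-1.18, edgeR adjusted p = 0.197). The effect of the block and that of fewer replicates cannot be told apart there. The block was not run between the het groups, since numbers do not cross lines. Spike-in scaling was not run, since libraries held 5 to 13772 spike-in counts. The Tle6 libraries held 5 to 45, Padi6 het replicate 3 held 40 and the other Padi6 libraries held 4009 to 13772. The part of this split in the values was not tested. Depth limits Ube2l6, Ube2d2b and Ube2dnl2, which were not tested.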
